A study of Mus musculus with 8 samples.

Results

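The effect of ENT1 loss in the young annulus was read from 4 of the 8 arrays of the series, the 2 labelled 2 month ENT1-null and the 2 labelled 2 month WT. All mice were of strain Black 6, and the labels give no treatment beyond the deletion. ENT1-null mice lacked exons 2 to 4 of Slc29a1, which encodes ENT1 (equilibrative nucleoside transporter 1), and the labels name no promoter or cell type that limits the deletion to a tissue. Each array held RNA of a pool of 5 to 6 pieces of thoracic annulus fibrosus from mice aged 2 months. The labels do not say whether different mice made up the 2 pools of a genotype, so p-values measure the spread between these pools, which may be technical. The 2 ENT1-null and 2 WT arrays of mice aged 6 months, made in the same way, shared the estimate of the spread and served to test whether an effect differed between the ages. Each gene was read from 1 probe set, and 15526 of 22180 genes passed a filter on low levels and were tested. Levels are log2 values made by RMA (robust multi-array average), and every difference is ENT1-null minus WT on that scale, given with its SE from limma and with n = 2 and 2 arrays.

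ENT1 is a carrier in the plasma membrane that lets adenosine and other nucleosides pass down their gradient, and cells use it to clear adenosine from the space around them. Extracellular adenosine is made from ATP by enzymes on the cell surface and acts through adenosine receptors. The annulus fibrosus is the ring of fibrocartilage that holds the gel-like nucleus pulposus of the intervertebral disc, and its cells make collagens and aggrecan. It lies against vertebral bone, whose marrow holds dividing precursors of red cells, granulocytes and platelets, and close to the muscles of the back.

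The 4 young arrays separated by genotype. Principal component 1 of the genes tested held 71.2% of their variance, with the WT arrays at −28.3 and −9.04 and the ENT1-null arrays at 13.8 and 23.5. WT replicate 1 thus lay farthest from the ENT1-null arrays, and WT replicate 2 lay nearer to them. Pearson r across genes was 0.983 between the WT arrays and 0.984 between the ENT1-null arrays, against 0.942 to 0.974 between the genotypes (genes are not independent replicates). Of genes that define annulus and cartilage, those of the matrix and Sox9 had high levels on all 4 arrays, and 2 tendon genes lay lower. Acan, the aggrecan core protein, lay between 12.56 and 12.92, Col1a1, the type I collagen chain, between 11.07 and 12.40, and Sox9, the chondrocyte transcription factor, between 11.83 and 12.21. Scx, a transcription factor of tendon and outer annulus, lay between 7.96 and 8.48, at percentiles 55.7 to 68.2 of the genes tested. Tnmd, the tendon membrane protein tenomodulin, lay between 6.84 on WT replicate 1 and 8.18, at percentiles 20.2 to 61.1. Among sex-linked genes Kdm5d and Uty, which lie on the Y chromosome, were measured between 8.31 and 8.93 on the 4 arrays, while Xist lay between 5.39 and 5.75, under the filter level of 6.21. Their differences between the genotypes did not pass the test.

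Slc29a1, the deleted gene, had the smallest adjusted p of all genes tested. Its level was 10.71 and 10.69 on the WT arrays and 9.21 and 9.36 on the ENT1-null arrays, so that the arrays of the genotypes lay far apart. It fell by 1.41 ± 0.09 (limma adjusted p = 0.00724), to 0.376 of the WT level on the linear scale. A second probe set of the gene read 4.94 and 4.76 on the WT arrays and 4.83 and 4.65 on the ENT1-null arrays. These levels were under the filter level of 6.21, and the difference was −0.11. Which exons either probe set reads was not examined, and a transcript without the deleted exons could still be read. The other nucleoside carriers did not pass. Slc28a2, a concentrative carrier that takes up purine nucleosides with sodium, read 7.20 and 7.06 on the WT arrays and 7.42 and 7.70 on the ENT1-null arrays (0.43 ± 0.13, adjusted p = 0.139), and Slc29a2, which encodes ENT2, gave −0.05 ± 0.11 (adjusted p = 0.846).

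Of 9 adenosine receptors and cell-surface enzymes of adenosine, 1 fell and none rose. That gene was Alpl, the tissue-nonspecific alkaline phosphatase, which removes phosphate from nucleotides and from the mineralization inhibitor pyrophosphate. Its level was 11.89 and 11.93 on the WT arrays and 11.12 and 11.11 on the ENT1-null arrays, a fall of 0.79 ± 0.10 (adjusted p = 0.0427), and a second probe set of the gene gave −0.34. Nt5e (CD73), which makes adenosine from AMP, gave −0.22 ± 0.09 (adjusted p = 0.248) and Entpd1 (CD39), which degrades ATP, 0.45 ± 0.15 (adjusted p = 0.173). Of 41 enzymes of adenosine and nucleotide metabolism inside the cell none passed, and their median difference was 0.10, against −0.04 for all genes tested. The enzymes with the largest statistics supply deoxynucleotides: Rrm1, a subunit of ribonucleotide reductase, gave 0.83 ± 0.15 (adjusted p = 0.0544), and Dck, deoxycytidine kinase, 1.07 ± 0.19 (adjusted p = 0.0545). None of the 20 tested genes nearest to Slc29a1 on chromosome 17, 10 on each side, passed the test, and their differences ran from −0.23 to 0.65. The highest was that of Clic5, a chloride channel family protein.

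Across all genes 106 of 15526 passed at adjusted p below 0.05 (0.683%), 46 higher (0.296%) and 60 lower (0.386%) in ENT1-null. Unadjusted p was below 0.05 in 3008 genes (19.4%). The call count depended on the arrays in the fit, as the spread was estimated from 2 arrays a group. Of the young arrays, leaving out WT replicate 1 gave 0 calls, WT replicate 2 gave 358, ENT1-null replicate 1 gave 1 and ENT1-null replicate 2 gave 0. Leaving out either 6 month WT array gave 299 calls, and either 6 month ENT1-null array 1. With arrays centred on their medians 161 genes passed, 96 higher and 65 lower, a split that leans the other way from the main one. No called gene changed direction in any of these fits, but with 1 array left out none could. The young arrays of all 106 were separate by genotype, and the 6 month arrays do not enter the difference at 2 months. In 9 of the 106 called genes both young arrays of the lower genotype lay under the filter level of 6.21, WT in 7 genes that rose and ENT1-null in 2 that fell, so that these entered the test through the higher arrays. Cenpk, Ccr3, Clec4d, Hgf and Doc2b were among them. The 2 tails of the data were unlike. In 8113 genes (52.3%) the arrays were separate, that is, those of 1 genotype were both higher than those of the other. Separate arrays with a difference of at least 2-fold numbered 253 upward (1.63%) and 28 downward (0.18%), while separate arrays at any size numbered 2955 upward (19%) and 5158 downward (33.2%). Of the 28 genes that were at least 2-fold lower 17 passed the test, against 19 of the 253 that were at least 2-fold higher.

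**Figure D1:**
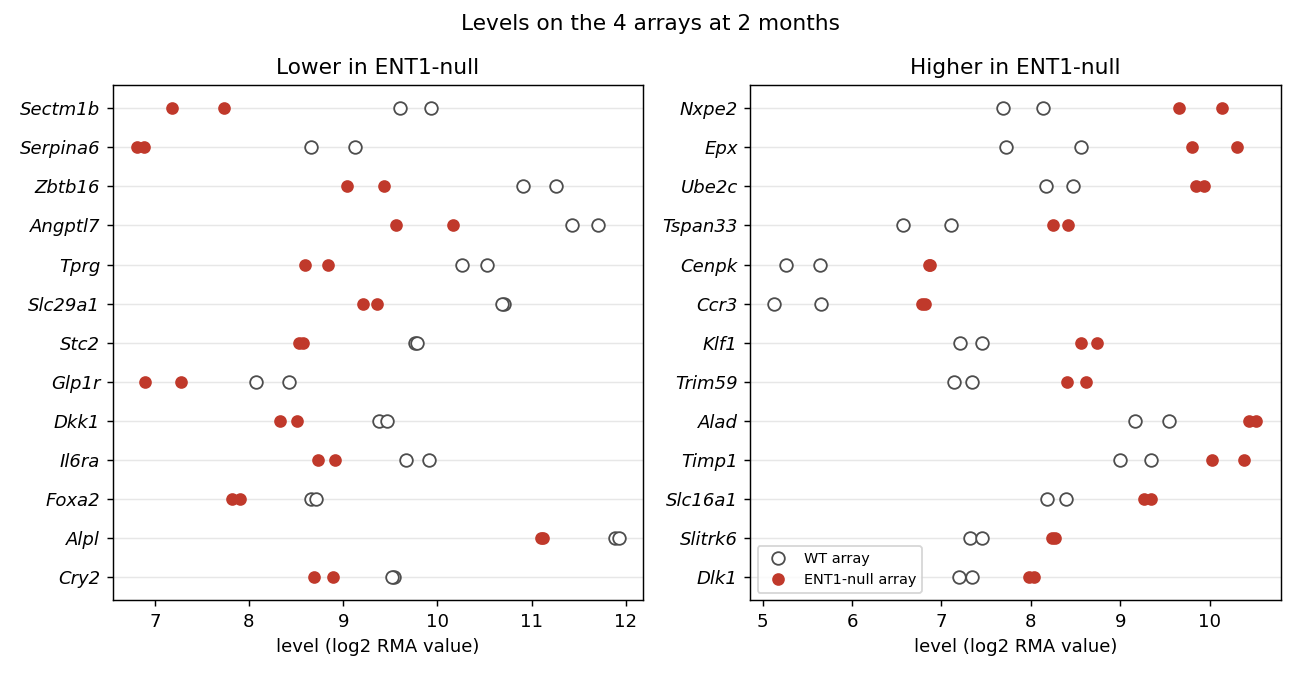
Level (log2 RMA value, horizontal axis) of 13 genes that fell (left) and 13 that rose (right) at 2 months, with 1 open circle per WT array and 1 filled circle per ENT1-null array. In every gene drawn the pair of ENT1-null arrays lies apart from the pair of WT arrays. Sectm1b, at the top left, is at 7.73 and 7.19 in ENT1-null against 9.93 and 9.61 in WT.

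The largest falls included genes known to respond to glucocorticoids. These hormones enter the cell, bind the receptor Nr3c1 and switch on genes such as Zbtb16, Fkbp5 and Tsc22d3. Of 44 genes on a list of glucocorticoid-responsive genes 3 fell and none rose, and the median was −0.26. Separate arrays numbered 26 downward and 3 upward (33.2% and 19% among all genes). The list also holds Nr3c1 itself and Serpina6, and it was chosen with earlier results of these data known. Its counts are thus a description only. Serpina6, the corticosteroid-binding globulin that carries the hormone in blood, read 9.13 and 8.65 on the WT arrays and 6.89 and 6.81 on the ENT1-null arrays. It fell by 2.04 ± 0.24 (adjusted p = 0.0369). Zbtb16, a zinc finger transcription factor, read 11.26 and 10.91 on the WT arrays and 9.44 and 9.04 on the ENT1-null arrays, a fall of 1.84 ± 0.19 (adjusted p = 0.0285). Angptl7, a secreted angiopoietin-like protein, read 11.71 and 11.43 on the WT arrays and 10.17 and 9.56 on the ENT1-null arrays, a fall of 1.71 ± 0.27 (adjusted p = 0.0448). In all 3 the arrays of the genotypes lay well apart, and WT replicate 1 was the highest and ENT1-null replicate 2 the lowest.

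A further 4 members of the list were at least 2-fold lower with separate arrays but did not pass: Klf15, Fkbp5, Tsc22d3 and Map3k6, of which the last 3 were chosen after their values were seen. Fkbp5, a co-chaperone that restrains the receptor, read 8.64 and 8.55 on the WT arrays and 7.85 and 7.10 on the ENT1-null arrays (−1.12 ± 0.30, adjusted p = 0.109). Tsc22d3 (GILZ), an anti-inflammatory target of the hormone, read 9.95 and 9.84 on the WT arrays and 9.25 and 8.36 on the ENT1-null arrays (−1.09 ± 0.32, adjusted p = 0.125). Both were lowest in ENT1-null replicate 2 and lower in both ENT1-null arrays than in either WT array. The receptor itself, Nr3c1, gave −0.04 ± 0.09 (adjusted p = 0.856). The member with the highest difference, Lcn2, is also a granule gene of neutrophils and stands in that marker list as well (1.19). Without ENT1-null replicate 2 the list's median was −0.20, and without replicate 1 −0.30.

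Genes of the circadian clock were mostly lower. The clock is a loop in which Arntl (BMAL1) with Clock or Npas2 drives the genes for its own repressors, the Per and Cry proteins, and for Nr1d1 and Dbp. Of 18 clock genes 1 fell and none rose, and the median was −0.38. Separate arrays numbered 13 downward and 2 upward (33.2% and 19% among all genes). Cry2, a repressor of the loop, read 9.54 and 9.52 on the WT arrays and 8.69 and 8.89 on the ENT1-null arrays, a fall of 0.74 ± 0.11 (adjusted p = 0.0443). Bhlhe41, another repressor, gave −0.58 ± 0.10 (adjusted p = 0.0527) and Tef, which acts on the same sites as Dbp, −0.41 ± 0.12 (adjusted p = 0.118). The 2 genes whose arrays separated upward were the activators Npas2 (0.56 ± 0.43, adjusted p = 0.517) and Arntl (0.34 ± 0.36, adjusted p = 0.648), both chosen after their values were seen. Their ENT1-null arrays of 6 months lay far apart, at 9.23 and 7.64 for Npas2 and at 8.78 and 7.49 for Arntl, which widened the SE. The labels give a light cycle of 12 hours but no hour of the day at which tissues were taken, so hour and genotype cannot be told apart.

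**Figure D2:**
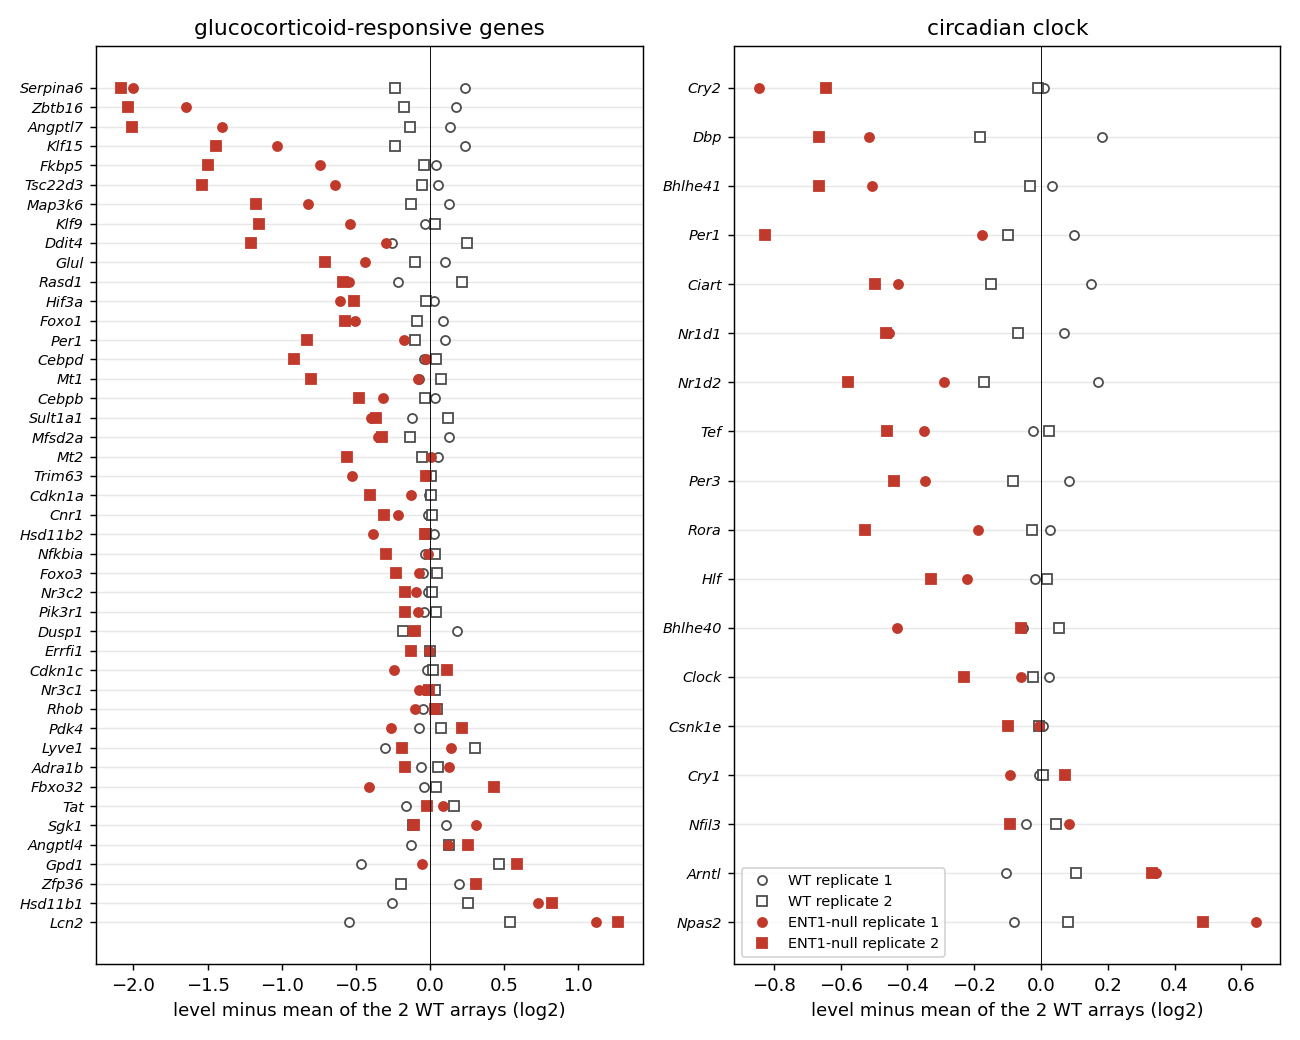
Level of each tested member of the glucocorticoid-responsive list (44 genes, left) and of the circadian clock list (18 genes, right) on the 4 arrays at 2 months, as log2 difference from the mean of the 2 WT arrays (horizontal axis). Open symbols are WT and filled symbols ENT1-null arrays, circles replicate 1 and squares replicate 2. Serpina6, Zbtb16 and Angptl7 stand farthest to the left, while Npas2 and Arntl are the clock genes to the right of both WT arrays.

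Sectm1b, which encodes a secreted and transmembrane immune protein, had the largest fall of all. Its level was 9.93 and 9.61 on the WT arrays and 7.73 and 7.19 on the ENT1-null arrays, a fall of 2.31 ± 0.19 (adjusted p = 0.0224). Tprg read 10.53 and 10.26 on the WT arrays and 8.60 and 8.83 on the ENT1-null arrays, a fall of 1.68 ± 0.15 (adjusted p = 0.0224). In both genes the distance between the genotypes was far larger than that between the arrays of either genotype. Gpld1, a phospholipase that releases proteins from their GPI anchor, fell by 1.07 ± 0.13 (adjusted p = 0.0393), and Ecrg4, a secreted peptide precursor, by 1.04 ± 0.17 (adjusted p = 0.0491).

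Genes of secreted signals, receptors and their partners were also among the falls. Dkk1, a secreted antagonist of Wnt signalling, read 9.38 and 9.47 on the WT arrays and 8.32 and 8.51 on the ENT1-null arrays and fell by 1.01 ± 0.12 (adjusted p = 0.0388). It was the only gene that passed among 23 Wnt antagonists and targets, whose median was 0.00. Of the other genes of that list Dkk3 gave −0.48 ± 0.08 (adjusted p = 0.0532) and Sfrp5 −0.63 ± 0.11 (adjusted p = 0.0544). Outside the list Lgr6, a receptor for the Wnt-enhancing R-spondins, fell by 0.65 ± 0.10 (adjusted p = 0.0482). Il6ra, the receptor subunit for interleukin 6, read 9.91 and 9.67 on the WT arrays and 8.91 and 8.73 on the ENT1-null arrays, a fall of 0.97 ± 0.13 (adjusted p = 0.0434). Glp1r, the receptor of the gut hormone GLP-1, fell by 1.17 ± 0.16 (adjusted p = 0.0443), and Gpbar1, a receptor of bile acids, by 0.68 ± 0.09 (adjusted p = 0.0434). Among ligands Npy, the neuropeptide Y precursor, fell by 0.81 ± 0.12 (adjusted p = 0.0443) and Bmp8a, a bone morphogenetic protein, by 0.51 ± 0.08 (adjusted p = 0.0443). Igfbp6, which binds insulin-like growth factors, fell by 0.68 ± 0.10 (adjusted p = 0.0443), and Nos1, the neuronal nitric oxide synthase, by 0.55 ± 0.09 (adjusted p = 0.0443).

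Foxa2, a transcription factor of the notochord from which the nucleus pulposus derives, read 8.66 and 8.71 on the WT arrays and 7.81 and 7.90 on the ENT1-null arrays. It fell by 0.82 ± 0.10 (adjusted p = 0.0393) and was the only one of 15 nucleus pulposus and notochord genes to pass, with a list median of −0.05. None of 12 genes of hedgehog and PTHrP signalling passed, but all 12 differences were below 0, with a median of −0.27. Of the 12 genes 10 had separate arrays downward (33.2% among all genes). Gas1, a co-receptor of hedgehog proteins, gave −0.90 ± 0.17 (adjusted p = 0.0597) and Smo, the signal transducer, −0.37 ± 0.10 (adjusted p = 0.0992).

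Some solute carriers other than Slc29a1 were also among the falls. Of 281 other tested genes with an Slc symbol 5 fell and 1 rose (0.386% and 0.296% among all genes). Slc19a3, a thiamine carrier, fell by 1.12 ± 0.17 (adjusted p = 0.0443). Slc6a6, the taurine transporter, read 12.08 and 11.88 on the WT arrays and 11.27 and 11.14 on the ENT1-null arrays, a fall of 0.78 ± 0.12 (adjusted p = 0.0443). Slc25a33, a mitochondrial carrier of pyrimidine nucleotides, read 7.79 and 7.87 on the WT arrays and 7.06 and 7.03 on the ENT1-null arrays, a fall of 0.78 ± 0.08 (adjusted p = 0.0285). The neutral amino acid carriers Slc1a4 and Slc38a1 fell by 0.68 ± 0.08 (adjusted p = 0.0327) and by 0.72 ± 0.11 (adjusted p = 0.0443). The gene that rose was Slc16a1, the monocarboxylate transporter MCT1, at 8.18 and 8.39 on the WT arrays and 9.34 and 9.26 on the ENT1-null arrays (1.01 ± 0.12, adjusted p = 0.0393). The Slc genes as a whole had a median difference of −0.04, against −0.04 for all genes tested.

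Among 32 genes of the endoplasmic reticulum stress and amino acid responses 2 fell. Stc2, a secreted stanniocalcin that is induced by such stress and also stands in the mineralization list, read 9.77 and 9.78 on the WT arrays and 8.57 and 8.53 on the ENT1-null arrays, a fall of 1.22 ± 0.13 (adjusted p = 0.0285). Chac1, which degrades glutathione, read 8.12 and 8.51 on the WT arrays and 7.08 and 7.32 on the ENT1-null arrays, a fall of 1.12 ± 0.15 (adjusted p = 0.0427). Asns, the asparagine synthetase of the same list, lay the other way (0.55 ± 0.13, adjusted p = 0.0827), and the list's median was −0.10. Bcat1, which starts the breakdown of branched-chain amino acids, fell by 0.90 ± 0.13 (adjusted p = 0.0443).

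Few matrix genes passed the test. Of 40 fibrous annulus and tendon matrix genes only Cilp2, a cartilage intermediate layer protein, passed, at 10.05 and 10.12 on the WT arrays and 9.18 and 9.38 on the ENT1-null arrays (a fall of 0.80 ± 0.11, adjusted p = 0.0443), and the median was −0.04. Its relative Cilp gave −0.59 ± 0.13 (adjusted p = 0.077), while Ltbp2, which associates with elastic fibres, gave 0.89 ± 0.15 (adjusted p = 0.054). None of 26 cartilage genes passed (median −0.14, or −0.26 without ENT1-null replicate 2). Of these 14 had separate arrays downward and 1 upward (33.2% and 19% among all genes). Matn1, which encodes matrilin 1 of cartilage, gave −0.55 ± 0.11 (adjusted p = 0.0664), and Runx3, a transcription factor of chondrocyte maturation, −0.70 ± 0.19 (adjusted p = 0.106). None of 30 genes of glycosaminoglycan synthesis passed (median −0.13), with Csgalnact2, which starts chondroitin chains, at −0.78 ± 0.14 (adjusted p = 0.0564). Of 21 mineralization regulators Alpl and Stc2 fell, and Ibsp, the bone sialoprotein, gave −0.52 ± 0.16 (adjusted p = 0.138).

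Inhibitors of matrix proteases did not move together. Timp1 read 8.99 and 9.35 on the WT arrays and 10.02 and 10.39 on the ENT1-null arrays and rose by 1.03 ± 0.15 (adjusted p = 0.0443). Timp4 and Timp2 lay the other way, at −1.03 ± 0.20 (adjusted p = 0.0592) and −0.44 ± 0.08 (adjusted p = 0.0597). No protease or inhibitor of the 30 tested passed besides Timp1. Hpse, the heparanase that cleaves heparan sulphate and lies outside that list, rose by 0.94 ± 0.13 (adjusted p = 0.0443). A second probe set of Hpse, under the filter level on all arrays, gave 0.11. Of 38 genes of TGF-beta and BMP signalling none passed (median −0.12), with Fstl3, an activin-binding protein, at −0.50 ± 0.09 (adjusted p = 0.0566) and Tgfbr1, the type I receptor of TGF-beta, at −0.80 ± 0.17 (adjusted p = 0.0697).

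Genes of cell division were higher in ENT1-null. All 33 tested genes of mitosis and G2/M had both ENT1-null arrays above both WT arrays, against 19% of all genes. Their median was 0.97, with differences from 0.30 to 1.78, and 2 passed the test. The mean level of the list was 7.05 and 7.40 on the WT arrays and 8.24 and 8.34 on the ENT1-null arrays. Ube2c, which passes ubiquitin to the substrates of the anaphase-promoting complex, read 8.17 and 8.47 on the WT arrays and 9.84 and 9.94 on the ENT1-null arrays, a rise of 1.57 ± 0.21 (adjusted p = 0.0437). Cdca8, borealin of the chromosomal passenger complex, read 6.31 and 6.54 on the WT arrays and 7.31 and 7.43 on the ENT1-null arrays, a rise of 0.94 ± 0.12 (adjusted p = 0.0405). Mad2l1, a spindle checkpoint protein, gave 0.76 ± 0.13 (adjusted p = 0.054) and Ect2, an activator of cytokinesis, 1.41 ± 0.24 (adjusted p = 0.054).

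Promoters of mitotic genes often hold CCAAT boxes, bound by the factor NF-Y, and a cell cycle homology region, TTTGAA or TTTAAA, bound by the DREAM and MuvB complexes. In RefSeq promoters of 300 bases (250 before to 50 after the start, build GRCm38.p6, both strands) CCAAT stood in 75% of the 28 matched mitosis genes and in 37.7% of all 12082 matched genes tested, and TTTGAA or TTTAAA in 85.7% against 20%. Among the 38 matched genes that rose these shares were 50% and 28.9%, and among the 46 matched genes that fell 34.8% and 17.4%. A further motif searched, that of E2F factors, stood in 14.3% of the mitosis genes and in 15.2% of all. The 250 bases before the start are shown for the 4 mitosis genes just named, since all members of the list had separate arrays upward. CCAAT and the cell cycle homology region are in capitals, on either strand and where they overlap as one run. Ube2c (chr2:164769679-164769928, plus strand) held 6 CCAAT matches and 1 of the other motif, and Ect2 (chr3:27153879-27154128, minus strand) 2 and 1. Cdca8 (chr4:124936918-124937167, minus strand) held 3 and 0, and Mad2l1 (chr6:66534971-66535220, plus strand) neither in this window.
Ube2c: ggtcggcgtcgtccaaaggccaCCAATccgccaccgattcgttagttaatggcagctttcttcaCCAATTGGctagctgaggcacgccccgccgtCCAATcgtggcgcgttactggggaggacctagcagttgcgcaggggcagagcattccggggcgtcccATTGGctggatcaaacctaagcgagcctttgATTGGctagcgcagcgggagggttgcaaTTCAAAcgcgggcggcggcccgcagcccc
Ect2: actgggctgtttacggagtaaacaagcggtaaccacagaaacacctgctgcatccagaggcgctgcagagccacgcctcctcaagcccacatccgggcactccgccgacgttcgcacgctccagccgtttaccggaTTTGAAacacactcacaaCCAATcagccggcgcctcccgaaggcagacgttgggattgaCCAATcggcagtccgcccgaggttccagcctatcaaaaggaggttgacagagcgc
Cdca8: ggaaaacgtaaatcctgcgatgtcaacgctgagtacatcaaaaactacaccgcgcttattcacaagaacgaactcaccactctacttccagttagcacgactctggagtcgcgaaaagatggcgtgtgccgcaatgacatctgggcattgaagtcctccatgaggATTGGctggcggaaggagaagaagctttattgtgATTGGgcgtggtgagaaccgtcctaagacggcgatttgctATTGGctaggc
Mad2l1: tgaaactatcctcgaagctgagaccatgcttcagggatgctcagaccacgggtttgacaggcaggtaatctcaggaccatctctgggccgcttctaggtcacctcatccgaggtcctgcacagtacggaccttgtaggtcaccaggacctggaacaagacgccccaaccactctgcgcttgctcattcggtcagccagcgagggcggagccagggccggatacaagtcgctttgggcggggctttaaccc

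Lists of other stages of the cycle had smaller medians. Of 29 genes of the centromere, kinetochore and centriole 3 rose, and the median was 0.44, or 0.29 without WT replicate 1. Separate arrays numbered 20 upward and 1 downward (19% and 33.2% among all genes). Cenpk, a protein of the inner kinetochore, read 5.26 and 5.64 on the WT arrays and 6.86 and 6.87 on the ENT1-null arrays, a rise of 1.42 ± 0.18 (adjusted p = 0.0393) from WT levels under the filter level. Cenpn, which binds the centromeric nucleosome, rose by 0.71 ± 0.11 (adjusted p = 0.0443), and Stil, needed for centriole duplication, by 1.09 ± 0.17 (adjusted p = 0.0463). Of 42 genes of DNA replication 1 rose, 36 had separate arrays upward and none downward (median 0.52): Mcm4, a subunit of the replicative helicase, read 8.47 and 8.53 on the WT arrays and 9.32 and 9.17 on the ENT1-null arrays (0.74 ± 0.11, adjusted p = 0.0443). Of 15 measured replication-dependent histone genes 10 passed the filter, which used the mean of all 8 arrays and so favoured genes high in ENT1-null. All 10 had separate arrays upward with no call (median 0.79), among them H1f5, a linker histone, at 1.81 ± 0.39 (adjusted p = 0.0736). Of those left out, H1f1 and H2ac20 had separate arrays upward and H2bc14 downward, and H4c1 and H4c14 overlapped. Of 27 genes of the G1 stage none passed (median 0.40), with E2f2 at 1.08 ± 0.20 (adjusted p = 0.0544). Outside the lists Cdc25b, a phosphatase that activates mitotic kinase, rose by 0.66 ± 0.10 (adjusted p = 0.0443) and Fam83d, a spindle protein, fell by 1.12 ± 0.12 (adjusted p = 0.0327).

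**Figure D3:**
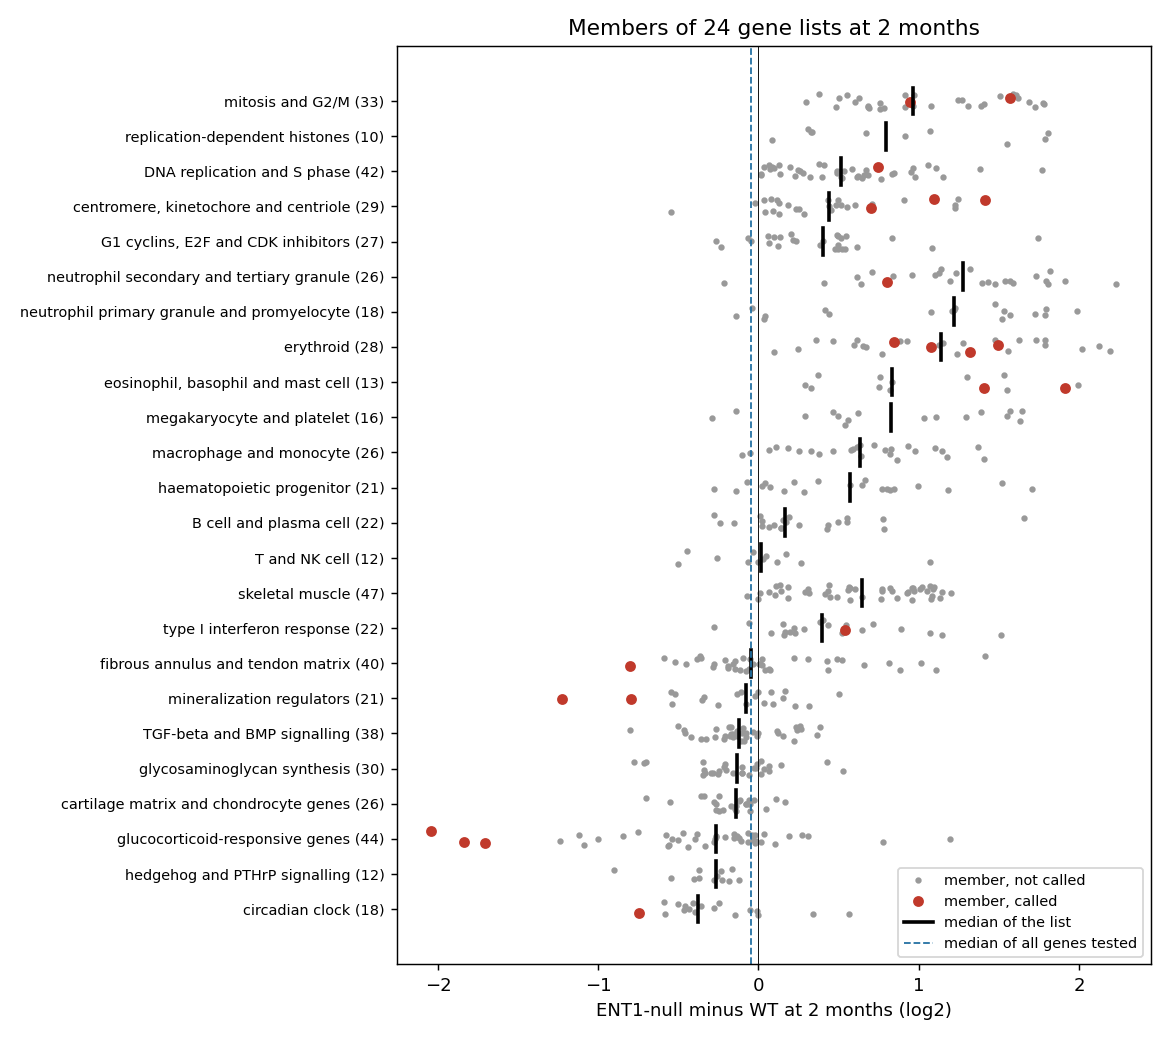
Difference between ENT1-null and WT at 2 months (log2, horizontal axis) of each tested member of 24 gene lists, with the number of members in parentheses. Small grey points are members that did not pass the test, red points are members that passed, the black bar is the median of the list, and the dashed line is the median of all genes tested (−0.04). The 33 mitosis genes all lie to the right of 0 and the 12 hedgehog and PTHrP genes all to the left.

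Markers of marrow cells were higher in the same arrays as the cell division genes. Over the 9 lists of blood and marrow markers, 179 genes in all, 7 rose and none fell, and the median was 0.77. Separate arrays numbered 138 upward and 10 downward (19% and 33.2% among all genes). The 9 lists held 69 of the 253 genes that were at least 2-fold higher (27.3%), and the cell cycle lists 31 (12.3%). In such bulk tissue fewer or more cells of a type cannot be told apart from less or more RNA per cell. The mean level of the 179 genes was 7.47 and 7.99 on the WT arrays and 8.47 and 8.58 on the ENT1-null arrays, and that of the 141 cell cycle genes 7.37 and 7.60 against 8.10 and 8.16. Both means thus ranked the arrays in 1 order, lowest in WT replicate 1 and highest in ENT1-null replicate 2. The part of marrow markers in the cell cycle differences was not tested.

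Among the marrow lists the erythroid one, genes of red cell precursors, held the most calls. All 28 erythroid genes were above 0 (6156 of 15526 among all genes), and the median was 1.14. Separate arrays upward numbered 27, and 4 genes rose (19% and 0.296% among all genes). Klf1, the master transcription factor of red cell development, read 7.21 and 7.45 on the WT arrays and 8.74 and 8.56 on the ENT1-null arrays, a rise of 1.32 ± 0.20 (adjusted p = 0.0443). Nfe2, an erythroid and megakaryocyte transcription factor, rose by 0.84 ± 0.10 (adjusted p = 0.0388), and Tspan33, a tetraspanin of erythroid progenitors, by 1.49 ± 0.24 (adjusted p = 0.0491). Fech, which puts iron into haem, rose by 1.08 ± 0.17 (adjusted p = 0.0493), and Alad, an early enzyme of haem synthesis that was in no list, by 1.13 ± 0.18 (adjusted p = 0.0494). Eif2ak1, the haem-regulated kinase that slows translation, was in no list either and rose by 0.57 ± 0.09 (adjusted p = 0.0443). The motif AGATAA, which GATA factors bind, stood in the promoters of 45% of 20 matched erythroid genes and of 7.17% of all genes tested. Among the 38 matched genes that rose its share was 5.26%, and among the 46 that fell 4.35%.

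Granulocyte genes were higher too. Of 21 measured genes of eosinophils, basophils and mast cells 13 were tested. All 13 had separate arrays upward (median 0.83), and 2 rose (19% and 0.296% among all genes). The filter used the mean of all 8 arrays, so that high ENT1-null arrays helped a gene into the test. Of the genes left out, Ear10 and Fcer1a had separate arrays upward and Mcpt4 downward. The arrays of Cma1, Tpsb2, Ms4a2, Il5ra and Cd200r3 overlapped. Epx, the peroxidase of eosinophil granules, read 7.72 and 8.56 on the WT arrays and 9.80 and 10.31 on the ENT1-null arrays, a rise of 1.91 ± 0.28 (adjusted p = 0.0443). Ccr3, the eotaxin receptor of the same cells, read 5.13 and 5.65 on the WT arrays and 6.78 and 6.81 on the ENT1-null arrays, a rise of 1.41 ± 0.18 (adjusted p = 0.0412). All WT levels of Ccr3 were under the filter level. Of 30 measured genes of secondary and tertiary neutrophil granules 26 were tested. Among these 25 had separate arrays upward (19% among all genes). The 1 that rose was Clec4d, a C-type lectin of myeloid cells (0.80 ± 0.12, adjusted p = 0.0443), whose young WT arrays were under the filter level. Of the genes left out, Stfa2 and Stfa2l1 had separate arrays upward and Stfa3 downward, and the arrays of Stfa1 overlapped. The median of that list was 1.28, and it was 0.72 without WT replicate 1. Of 18 genes of primary granules and promyelocytes none passed (median 1.22).

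Megakaryocyte and platelet genes (16, median 0.82), macrophage and monocyte genes (26, median 0.64) and genes of haematopoietic progenitors (21, median 0.57) held no call. Of these 14, 22 and 14 had separate arrays upward (19% among all genes). The medians of the first pair were 0.45 and 0.37 without WT replicate 1, and that of the progenitor genes was 0.34 without ENT1-null replicate 2. Tubb1, the platelet tubulin, gave 1.55 ± 0.36 (adjusted p = 0.0815) and C1qb, a complement subunit made by macrophages, 0.98 ± 0.19 (adjusted p = 0.0594). Lymphocyte lists had lower medians, 0.16 for 22 B and plasma cell genes (0.05 to 0.34 without single young arrays) and 0.01 for 12 T and NK cell genes, with no call in either. Immunoglobulin kappa variable segments, outside the lists and named after their values were seen, lay higher. Of 8 tested Igkv genes none passed, but 6 were at least 2-fold higher with separate arrays (1.63% among all genes), and the median was 1.10. They held the 3 highest differences of all genes tested. The highest read 4.55 and 7.98 on the WT arrays, far apart, and 9.51 and 9.83 on the ENT1-null arrays. Its difference was 3.41 ± 1.35 (adjusted p = 0.226). The second read 5.26 and 6.29 on the WT arrays and 8.62 and 8.42 on the ENT1-null arrays. It gave 2.75 ± 0.59 (adjusted p = 0.0719). The third of these, Igkv8-30, read 4.63 and 4.38 on the WT arrays, under the filter level, and 7.59 and 6.55 on the ENT1-null arrays (2.56 ± 0.55, adjusted p = 0.0697). High ENT1-null arrays helped genes with low WT arrays through the filter, which used the mean of all 8 arrays. Igkv segments are alike in sequence, and their probe sets may share signal. Jchain, the joining chain of secreted antibodies, gave 1.66 ± 0.57 (adjusted p = 0.177), and Cd8b1, a chain of the co-receptor of cytotoxic T cells, −0.45 ± 0.13 (adjusted p = 0.114). Ly9, a receptor of lymphocytes, was in no list and rose by 0.59 ± 0.09 (adjusted p = 0.0443).

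Skeletal muscle genes varied between arrays of a genotype, though 46 of the 47 tested had a difference between the genotypes above 0. The mean level of 47 muscle genes was 7.51 and 8.24 on the WT arrays and 7.92 and 9.10 on the ENT1-null arrays, so that replicate 2 was the higher array in both and the genotypes overlapped. None passed, the arrays of 42 overlapped, and the median of 0.65 became 0.09 when ENT1-null replicate 2 was left out and 1.25 when ENT1-null replicate 1 was. The highest muscle level was on ENT1-null replicate 2, which was also the lowest of the 4 arrays for 25 of the 44 glucocorticoid-responsive genes. The part of muscle RNA in those differences was not tested.

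**Figure D4:**
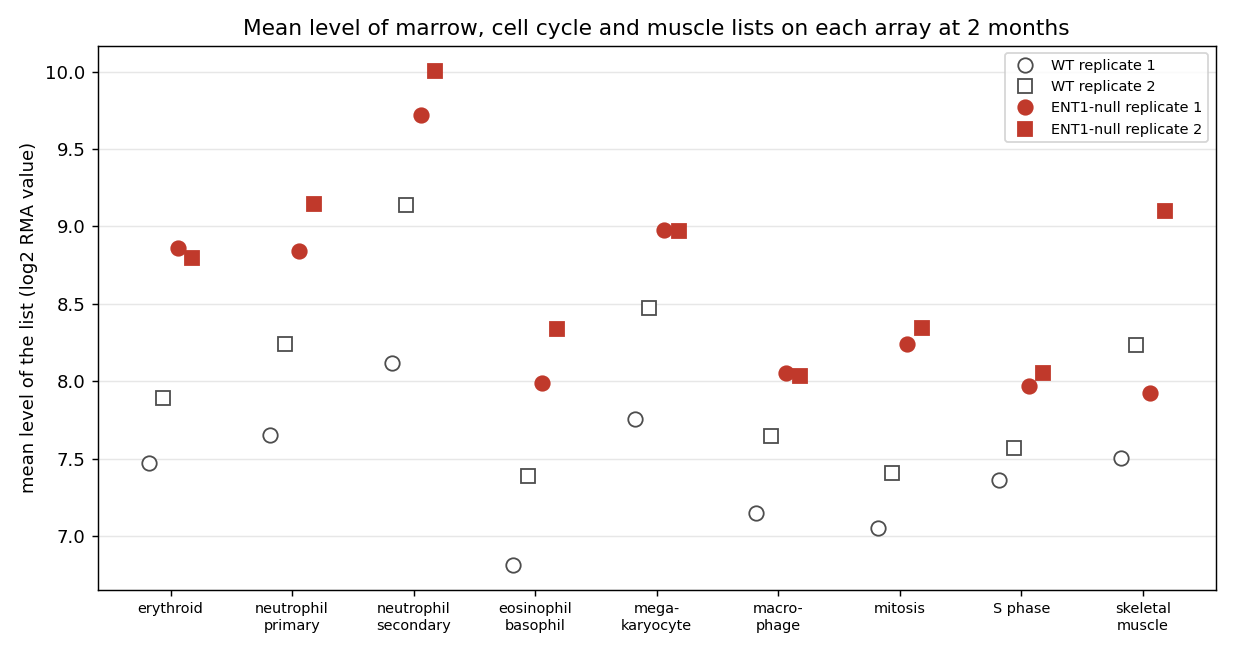
Mean level (log2 RMA value, vertical axis) of 6 marrow marker lists, 2 cell cycle lists and the skeletal muscle list on each of the 4 arrays at 2 months. Open symbols are WT and filled symbols ENT1-null arrays, circles replicate 1 and squares replicate 2. The WT arrays lie below both ENT1-null arrays in each marrow and cell cycle list, and the muscle list separates replicate 1 from replicate 2 instead.

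Rises outside these groups included the largest among the called genes, that of Nxpe2 (11 genes that did not pass had larger differences), which read 7.69 and 8.13 on the WT arrays and 10.14 and 9.66 on the ENT1-null arrays (1.99 ± 0.30, adjusted p = 0.0443). Trim59 read 7.14 and 7.34 on the WT arrays and 8.61 and 8.40 on the ENT1-null arrays, a rise of 1.27 ± 0.17 (adjusted p = 0.0441). Slitrk6, a membrane protein of neurons and sensory epithelia, read 7.31 and 7.45 on the WT arrays and 8.23 and 8.27 on the ENT1-null arrays, a rise of 0.87 ± 0.10 (adjusted p = 0.0327). B4galt6, a galactosyltransferase of glycolipid synthesis, rose by 0.89 ± 0.10 (adjusted p = 0.0369). Both the fetal growth genes Dlk1, a Notch-like membrane protein of progenitor cells, and Hmga2, a chromatin protein, rose, by 0.74 ± 0.09 (adjusted p = 0.0388) and by 0.59 ± 0.08 (adjusted p = 0.0443). Mlkl, the effector of necroptosis, rose by 1.09 ± 0.15 (adjusted p = 0.0434), Mapk13, a p38 kinase, by 1.08 ± 0.16 (adjusted p = 0.0443), and Hgf, the hepatocyte growth factor, whose WT levels were all under the filter level, by 0.71 ± 0.11 (adjusted p = 0.0443). In all of these both ENT1-null arrays lay above both WT arrays, as in every called gene that rose.

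Of 28 measured genes of the type I interferon response 22 passed the filter, which used the mean of all 8 arrays. These had a median of 0.39, and 1 rose. Separate arrays numbered 17 upward and 1 downward (19% and 33.2% among all genes). Of the genes left out, Isg15 and Trim30a had separate arrays upward and Mx1 and Mx2 downward. The arrays of Bst2 and Ifi44l overlapped. Ifih1, the MDA5 sensor of double-stranded RNA, read 7.49 and 7.52 on the WT arrays and 8.001 and 8.086 on the ENT1-null arrays, a rise of 0.54 ± 0.09 (adjusted p = 0.0494). Rsad2, viperin, gave 1.51 ± 0.25 (adjusted p = 0.0527). Adarb1, an enzyme that edits adenosine to inosine in double-stranded RNA and lies outside the list, fell by 1.02 ± 0.14 (adjusted p = 0.0443). Inflammatory cytokines (23 genes, median 0.06) and ribosomal proteins (25 genes, median 0.07) held no call, nor did endothelial (25 genes, median 0.24) or adipocyte genes (19 genes, median 0.27). Without single young arrays the endothelial median ran from 0.11 to 0.47, and the adipocyte one was 0.02 without WT replicate 1 and 0.56 without WT replicate 2.

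Most of the 106 genes differed in the same direction at 6 months. There 95 passed the test in the same direction, 45 of the 46 that rose and 50 of the 60 that fell. Of all genes 38.8% were called at that age, 21.2% higher and 17.6% lower. The 2 ages share no arrays but share the estimate of the spread. Sectm1b gave −3.07, Serpina6 −3.01, Zbtb16 −1.81 and Slc29a1 −1.53 at 6 months. The genes that rose had the larger difference at 6 months in 41 of 46 cases, and the genes that fell in 31 of 60. The test of the difference between the ages was called in 25 of the 106 genes and in 4.45% of all genes tested, and 19 of these 25 were larger at 6 months. Over all genes that test gave 691 calls, a count that fell to 319 when WT replicate 1 of 6 months was left out, to 21 when ENT1-null replicate 1 of 2 months was, and to 0 with any other array left out.

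The 6 that were larger at 2 months were Fam83d, Chac1, Il6ra, Doc2b, Ptpn1 and Trpm6. Fam83d read 7.91 and 8.10 on the WT arrays and 7.86 and 8.01 on the ENT1-null arrays at 6 months (−0.07), so that the 2 groups overlapped there (adjusted p of the difference between ages = 0.0383). Chac1 gave −0.06 and Il6ra −0.05 at 6 months (adjusted p of the difference = 0.0423 and 0.0433). Doc2b, a calcium sensor of vesicle release, read 7.02 and 6.79 on the WT arrays and 5.96 and 6.07 on the ENT1-null arrays at 2 months and gave −0.11 at 6 months (adjusted p of the difference = 0.0439). Apart from the young WT arrays all arrays of Doc2b were under the filter level, its WT arrays of 6 months at 5.97 and 6.12, so that its difference at 6 months and the difference between ages are bounded by that low level. Ptpn1, the phosphatase PTP1B that dampens insulin and leptin signals, changed sign. It fell by 0.56 ± 0.08 at 2 months (adjusted p = 0.0443) and rose by 0.36 ± 0.08 at 6 months (adjusted p = 0.0106), a difference between ages of 0.92 ± 0.11 (adjusted p = 0.0356). Trpm6, a magnesium channel, rose by 0.64 ± 0.10 at 2 months and gave −0.08 at 6 months (adjusted p of the difference = 0.0421).

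**Figure D5:**
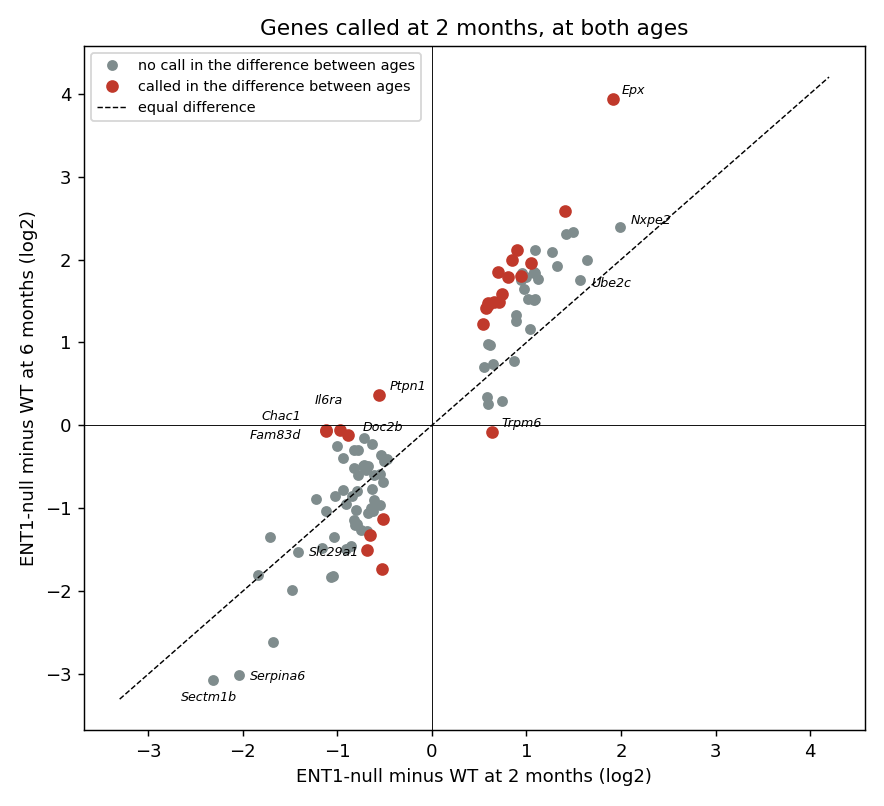
Difference between ENT1-null and WT at 2 months (log2, horizontal axis) and at 6 months (log2, vertical axis) of the 106 genes called at 2 months. Each point is a gene, red where the difference between the ages was called (25 genes) and grey where it was not, and the dashed line marks equal differences. Most genes that rose lie above the line, and Fam83d, Chac1, Il6ra and Doc2b lie near 0 on the vertical axis.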

How the data were processed

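Per the submitters' processing notes the authors made the values by RMA, and the deposited values are log2, 1 per probe set and array. For the RMA version, the array's design and the build, no statement was given in the sources used here. Array medians ran from 6.77 to 6.82, and no array was left out. Of 41345 probe sets 23521 had 1 gene symbol, 1814 several and 16010 none. Each of 22180 genes was read from its single-symbol probe set with the highest mean, and genes below the 30th percentile (6.21) were left out. The number of arrays limits the precision.

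A model with 4 group means (4 residual degrees of freedom) was fitted on the 8 arrays with limma 3.58.1 (lmFit, eBayes) in R 4.3.3. Adjusted p values are from limma with Benjamini-Hochberg adjustment over all genes tested, and below 0.05 a gene was called. No replicate block was used. The fit was tested on simulated data. Arrays are called separate where those of 1 genotype were both higher than those of the other.

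Named were Slc29a1, called genes (passing over predicted genes, Riken clones, vomeronasal and olfactory receptors, small nucleolar RNAs and microRNAs, which were 9 calls), the called members and the 4 largest statistics of a list, and neighbours of Slc29a1. The matrix and sex-linked genes of the tissue check and the list members under the filter stand outside that rule. The members, the 45 lists and the tests were chosen with earlier results of these data known. Lists are described by counts and medians, with no test of their own. Gene order and promoters came from RefSeq (GRCm38.p6). The alternatives were other filters, scalings, probe set choices, variance settings, thresholds, a replicate block, only the 4 young arrays, and leaving out each array.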

Additional observations from a re-analysis of the deposited data

Results flagged for a closer look

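In 24 named genes called at 2 months the test of the difference between the ages was also called (limma adjusted p from 0.0356 to 0.0494 over these genes). Values here are the genotype difference at 6 months minus that at 2 months (log2). Among genes that rose at 2 months the difference was larger at 6 months, by 2.02 for Epx, 1.18 for Ccr3, 1.21 for Grap2, 1.15 for Nfe2 and 0.99 for Clec4d, all genes of blood cells or their receptors. It was larger by 1.15 for Cenpn, 0.86 for Cdca8, 0.83 for Mcm4, 0.82 for Cdc25b and 0.91 for Lockd, genes of the cell cycle or beside one. Further values were 0.88 for Ly9, 0.85 for Eif2ak1, 0.86 for Zfp984, 0.78 for Hgf and 0.68 for Ifih1.

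Among genes that fell, the fall was deeper at 6 months in Slurp1 (−0.82), Lgr6 (−0.67) and Pdgfrl (−0.61). In Chac1 (1.06), Fam83d (1.05), Ptpn1 (0.92), Il6ra (0.91) and Doc2b (0.77) the difference at 6 months lay above that at 2 months, and in Trpm6 (−0.72), which rose at 2 months, below it. In Doc2b all arrays but the young WT ones lay under the filter level of 6.21, as did all WT arrays of Ccr3 and Hgf and the young WT arrays of Clec4d and Zfp984. No explanation was tested for any of these, and fits without 1 array made 0 to 319 calls between ages, against 691 with all arrays.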

How the results depend on the processing

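Genes called at 2 months numbered 106, 125 with a filter at the 50th percentile, 96 with quantile normalization again and 102 with the probe set of largest variance. They numbered 29 with no filter, 161 with arrays centred, 35 with all single-gene probe sets, 259 with eBayes trend and robust, 823 at adjusted p below 0.1, and 791 at unadjusted p below 0.05 and at least 1.5-fold. With only the 4 young arrays 0 passed. Leaving out single arrays gave 0 to 358. With the replicate number as a block within age (replicate block) 43 passed, 21 of them among the 105 called genes other than Slc29a1. Replicate numbers were not taken to pair arrays: deviations of same-numbered arrays correlated at 0.415 at 2 months and −0.148 at 6 months. The difference between ages (691 calls) gave 11 with no filter, 1102 with trend and robust, 2383 at adjusted p below 0.1, 1896 by unadjusted p with 1.5-fold, and 0 to 319 without single arrays. Slc29a1 did not pass with only the young arrays (−1.41), and gave −1.48 to −1.34 without single arrays, where it did not pass without WT replicate 1 of 2 months (adjusted p = 0.149), ENT1-null replicate 1 (0.0616) or ENT1-null replicate 2 (0.0643). Of 45 list medians 32 moved by over 1.5 times without 1 young array, and 11 of them, all at or under 0.15 in size, changed sign. Uncalled values that changed sign were Rpl19 (−0.018 with the probe set of largest variance) and Uty (−0.20 to 0.018 without single arrays). No called gene changed sign, which leaving out 1 array could not bring about, as the young arrays of every called gene were separate. Apart from the fits with fewer genes or arrays, the cause was not tested.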
